A study of Mus musculus with 24 samples.

Results

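Infarction was examined in hearts of caPI3K mice, which carry a constitutively active phosphoinositide 3-kinase (PI3K) transgene expressed in the heart and which the labels describe as having raised PI3K activity. The comparison sets the 4 arrays titled caPI3K MI (myocardial infarction) against the 4 arrays titled caPI3K sham (control operation), 8 of the series' 24 arrays, chosen by sample title alone. Mice of all groups were of the FVB/N strain, were operated on at 4 months of age and gave up their hearts 8 weeks later. The same operations were done in dnPI3K mice, whose transgene lowers PI3K activity in the heart, and in nontransgenic (Ntg) mice, 4 arrays a group. Both caPI3K groups carry the transgene, so the comparison reads infarction in the presence of raised activity and not the transgene itself. No source used here gives the promoter that drives the transgene. Hearts were homogenized singly, but whether every array stands for its own animal is not stated, so the p-values describe only how much arrays vary, and their number limits the precision. One label of the caPI3K MI samples names them sham, but their titles, descriptions and the text of that same label say MI. Of 14763 tested genes, the 14178 on autosomes are described.

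PI3K, through its p110 alpha catalytic subunit, carries the signal of insulin and insulin-like growth factor 1 to Akt. In the heart this route is known for its part in the growth that exercise brings, and raised activity as a setting in which cardiac stress is better tolerated. After coronary occlusion, dead muscle is replaced by a collagen scar laid down by activated fibroblasts. The muscle that survives carries more load, makes natriuretic peptides and other genes of the fetal programme, and tends to lower its genes of fatty acid oxidation.

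The sham arrays were not alike in sex-linked signal. Sham replicates 1, 2 and 3 had *Eif2s3y*, a gene of the Y chromosome, at 10.55 to 10.99 on the log2 scale and *Xist*, expressed from the inactive X chromosome, at 6.77 to 7.08. Sham replicate 4 had *Eif2s3y* at 3.90 and *Xist* at 12.65, and all 4 MI arrays had *Eif2s3y* at 3.95 to 5.04 and *Xist* at 12.73 to 13.14. No source used here gives the animals' sex. Y-linked signal and operation can therefore be separated only through sham replicate 4, and some of the results, though not all, are given against that array as well. The MI arrays are numbered 257, 261, 1123 and 987 and the sham arrays 1416, 1413, 1417 and 1410, and what these numbers record is not stated. Heart muscle identity was clear on all 8 arrays. *Myh6*, the alpha myosin heavy chain, had signals of 49116 to 57479 on MI arrays and 55958 to 60074 on sham arrays, above the 99th percentile of every one of these arrays. *Pik3ca*, which encodes p110 alpha, had 1379.9, 1621, 1470.1 and 1482 on MI arrays and 1650.4, 1501, 1508 and 1493 on sham arrays. The change of *Pik3ca* was -0.05 log2 units (SE 0.15, adjusted p = 0.948).

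Of the genes called after infarction in caPI3K hearts, more rose than fell, while over all tested genes 7000 changes were positive and 7178 negative. Signals are the deposited array intensities. A change is the MI mean minus the sham mean of log2(signal + 11.2), where the pseudocount of 11.2 makes changes of dim genes too small. Standard errors (SE) come from one limma fit to all 24 arrays, n = 4 a group. limma with Benjamini-Hochberg adjustment over all tested genes called 153 autosomal genes at an adjusted p below 0.05, which is 1.08% of those tested. Of these, 117 rose (0.825%) and 36 fell (0.254%). The rises were also larger, with 28 genes up by at least 1 log2 unit and 3 down by as much. The MI and sham arrays did not overlap for 114 of the genes that rose and 34 of those that fell. These genes were called on the same arrays, so the lack of overlap follows largely from the call and adds no support. Among all autosomal genes, the MI arrays lay all above the sham arrays for 4.99% and all below them for 4.37%, and the median change was -0.00.

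The count leans on single arrays and on the composition of the groups. It was 62, 129, 88 and 80 without MI replicates 1 to 4 and 91, 64, 157 and 85 without sham replicates 1 to 4, and 48 genes, 42 up and 6 down, were called in all 8 of these fits. Without the 3 sham arrays with Y-linked signal the fit called 9 genes, 0.0635% of those tested. Of these *Ccn2*, *Fmod*, *Nppb*, *Phlda1* and *Sfrp2* were called against all sham arrays too. The other 4, *Myof* (3.04), *Osbpl5* (2.53), *Spef1* (2.36) and *Trpc2* (1.96), named after their values were seen, had signals of 15.3, 35.9, 35.4 and 17.6 on that one sham array. All 153 genes kept their direction against the remaining sham array and 84 changed more, so that the median ratio of the changes was 1.033. A group of 1 array has no spread of its own, and that array is also part of the main comparison. MI and sham arrays did not overlap for 114 of the called genes that rose and 34 of those that fell. The kept direction was thus largely fixed by the calls and is no separate support for them. Without the 3 MI arrays numbered under 1000, an alternative chosen after the data were seen, 1 array is left and 1 gene is called, *Prkar1b*.

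**Figure D1:**
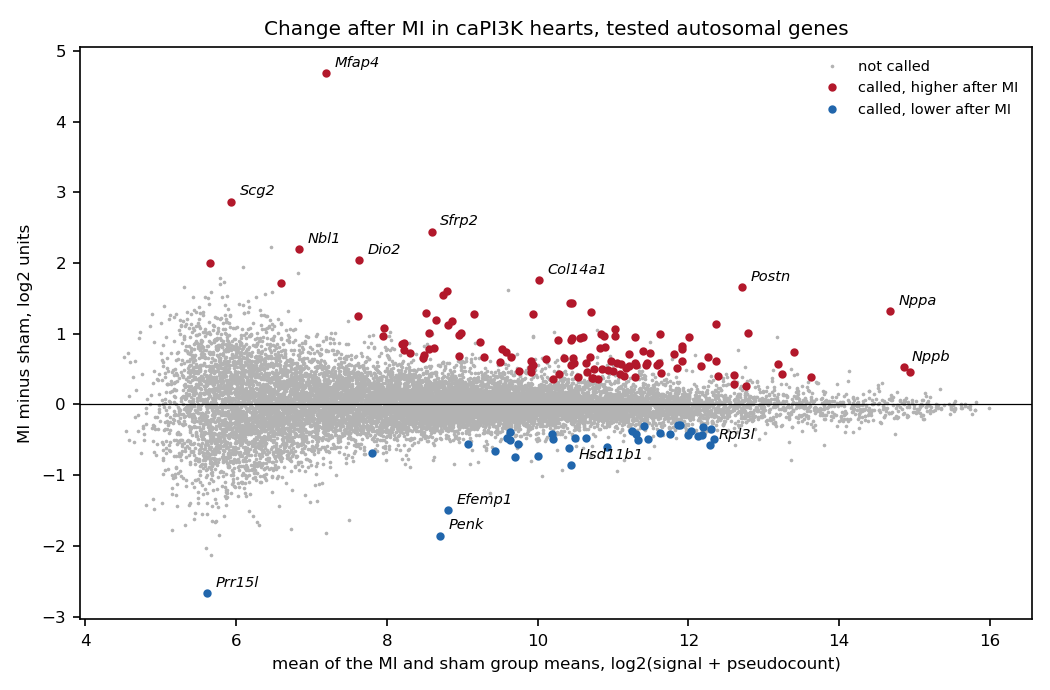
Change after MI in caPI3K hearts for every tested autosomal gene. The horizontal axis gives the mean of the MI and sham group means as log2(signal + pseudocount) and the vertical axis the MI mean minus the sham mean in log2 units, with the 117 genes called higher in red, the 36 called lower in blue and the others in grey. Genes called higher reach 4.69 log2 units at *Mfap4*, and genes called lower reach -2.67 at *Prr15l*.

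Every tested collagen had a higher mean after infarction, and 5 passed the test. *Col14a1*, a fibril-associated collagen, had signals of 1960.4, 1695, 1911 and 2018 on MI arrays, against 397, 481, 595 and 823 on sham arrays. All MI arrays were above all sham arrays, and the sham array without Y-linked signal was the highest of its group. *Col14a1* changed by 1.75 log2 units against all sham arrays (SE 0.20, adjusted p = 4.14e-05) and by 1.19 (adjusted p = 0.131) against that array alone. *Col5a2*, which regulates the width of collagen fibrils, had 2578, 2294, 2531 and 2908 on MI arrays, against 1415, 1117, 1539.5 and 1114 on sham arrays, a change of 0.99 (SE 0.19, adjusted p = 0.0071) with no overlap. Of 22 tested collagens 5 rose and 0 fell, the other 3 being *Col8a2*, *Col8a1* (0.99, adjusted p = 0.0207) and *Col6a1* (0.71, adjusted p = 0.013). Over all tested autosomal genes 0.825% rose. All 22 collagen changes were positive, with a median of 0.71 log2 units, and 21 were positive against the sham array without Y-linked signal. For 14 collagens the MI arrays lay all above the sham arrays, against 4.99% of all tested autosomal genes. The count of 5 was 3 without MI replicate 3 or sham replicate 2. The main collagens of scar did not pass the test, with changes of 0.96 for *Col1a1* (SE 0.34, adjusted p = 0.202), 0.78 for *Col1a2* (SE 0.20, adjusted p = 0.0531) and 0.96 for *Col3a1* (SE 0.25, adjusted p = 0.0602). For each of these the MI arrays lay above the sham arrays.

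Enzymes that process and crosslink collagen had fewer calls, 3 up and 0 down of 18. *Pcolce2*, an enhancer of the proteinase that trims procollagen, had 2678, 2738, 2653 and 2475 on MI arrays, against 1326, 1288, 1376 and 1380.3 on sham arrays. These groups were far apart for the spread within them, and *Pcolce2* changed by 0.97 (SE 0.12, adjusted p = 0.000149), or 0.93 against the sham array without Y-linked signal. *Lox*, lysyl oxidase, rose by 1.07 (SE 0.25, adjusted p = 0.0263) and *Loxl3*, its relative, by 0.66 (SE 0.16, adjusted p = 0.0396). Each of *Lox* and *Loxl3* lost its call in at least 5 of the 8 fits that leave out 1 array, and the list's count was 1 without MI replicate 1, 3 or 4 or sham replicate 1 or 4. Of 26 proteases and inhibitors 2 rose and 0 fell, *Mmp2*, a gelatinase (0.58, SE 0.13, adjusted p = 0.0276), and *Adamts10* (0.70, SE 0.17, adjusted p = 0.0409). Neither was called without MI replicate 1, 3 or 4 or sham replicate 2 or 4, and 1 of them was called without MI replicate 2 or sham replicate 3.

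Elastic fibre and microfibril genes went both ways. Of 16 tested, 6 rose and 1 fell, with a median of 0.59. *Mfap5*, a microfibril protein, had 8833, 8274, 7113 and 7189 on MI arrays, against 3851, 3449, 3768 and 3207 on sham arrays, a change of 1.13 (SE 0.20, adjusted p = 0.00232). *Fbln1*, a fibulin of basement membranes and elastic fibres, had 3463, 3200.1, 3704 and 3650.1 on MI arrays, against 1667, 1871, 1936 and 1708 on sham arrays, a change of 0.96 (SE 0.15, adjusted p = 0.000611). Neither gene's groups overlapped, and both were called whichever array was left out. *Fbln5* (0.67, SE 0.12, adjusted p = 0.00503), which organizes elastic fibres, and *Ltbp4* (0.58, SE 0.12, adjusted p = 0.00808), which holds latent TGF-beta, rose as well. *Mfap4* had 701, 798, 886 and 576 on MI arrays, against 18, 29.3, 14.8 and 11.2 on sham arrays. Those sham signals are near the pseudocount of 11.2, which limits the change of 4.69 log2 units (SE 0.71), so no fold is given for *Mfap4*. *Ltbp2* rose by 1.54 (SE 0.38, adjusted p = 0.0405) but lost its call in each of the 8 fits that leave out 1 array.

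*Efemp1*, another fibulin, was the member that fell. It had 335, 236, 328 and 169 on MI arrays, against 805, 823, 977 and 475 on sham arrays. All MI arrays were below all sham arrays, and the sham array without Y-linked signal was the lowest of its group. *Efemp1* changed by -1.49 log2 units against all sham arrays (SE 0.22, adjusted p = 0.000611) and by -0.85 (adjusted p = 0.614) against that array alone.

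Among matricellular proteins, which signal from the matrix without building it, and adhesive glycoproteins of the matrix, taken as 1 list, 6 of 31 rose and 0 fell, with a median of 0.38. *Ccn2*, connective tissue growth factor, had 11222, 10427, 10112 and 8636 on MI arrays, against 4562, 4593, 6947 and 4209 on sham arrays. Sham replicate 3 was the highest of its group and still below every MI array. *Ccn2* changed by 1.01 (SE 0.13, adjusted p = 0.00018) and by 1.25 (adjusted p = 0.00327) against the sham array without Y-linked signal. *Postn*, periostin of activated fibroblasts, had 12126, 13399, 10135 and 12351 on MI arrays, against 3722, 4054, 4490.1 and 2992 on sham arrays, with no overlap. *Comp* had 1818, 2289.9, 2433 and 2534 on MI arrays, against 769, 902, 824 and 812 on sham arrays, a change of 1.43 (SE 0.22, adjusted p = 0.000816). *Fn1*, fibronectin, rose by 0.93 (SE 0.19, adjusted p = 0.0115) and *Smoc2*, a calcium-binding matricellular protein, by 0.54 (SE 0.11, adjusted p = 0.00808). *Ccn5*, a relative of *Ccn2*, changed by 1.18 (SE 0.28, adjusted p = 0.0312) and by 1.81 against the sham array without Y-linked signal.

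Proteoglycans gave one of the 2 smallest adjusted p-values of the comparison, that of *Fmod*, fibromodulin, which binds collagen fibrils. *Fmod* had 1542, 1754, 1498 and 1318 on MI arrays, against 814, 512, 669 and 526 on sham arrays. The groups did not overlap, and the change was 1.28 (SE 0.15, adjusted p = 4.14e-05), or 1.51 (adjusted p = 0.00327) against the sham array without Y-linked signal. Of 21 proteoglycan genes 5 rose and 0 fell, with a median of 0.34. The others were *Gpc6*, a glypican (0.60, SE 0.11, adjusted p = 0.00324), *Sdc2*, a syndecan (0.51, SE 0.10, adjusted p = 0.00824), *Vcan*, versican (0.92, SE 0.20, adjusted p = 0.0172), and *Prelp* (0.73, SE 0.16, adjusted p = 0.0207). The count of 5 was 2 without MI replicate 1 and 3 without sham replicate 2. With the mean of a gene's probe sets in place of the brightest probe set it was 1.

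Fibroblast markers moved with these matrix genes, and the lists share members. Of 24 fibroblast markers 8 rose and 0 fell, with a median of 0.48, and 17 had MI arrays all above sham arrays. Over all tested autosomal genes 0.825% rose and 4.99% had MI arrays all above sham arrays. The count of 8 was 4 without sham replicate 1 and 5 without MI replicate 1 or 4 or sham replicate 2 or 4. The median level of the list, relative to the mean of the 8 arrays, was 0.175 to 0.308 log2 units on MI arrays and -0.379 to -0.144 on sham arrays. Outside the matrix lists, *Pdgfrl* rose by 1.19 (SE 0.23, adjusted p = 0.00804), *Islr* by 0.80 (SE 0.14, adjusted p = 0.00314), and *Tcf21*, a transcription factor of resident cardiac fibroblasts, by 0.51 (SE 0.12, adjusted p = 0.0283). In whole hearts more cells of a type and more RNA per cell cannot be told apart, and likewise fewer cells and less RNA. The part of fibroblast markers in the matrix changes was not tested.

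**Figure D2:**
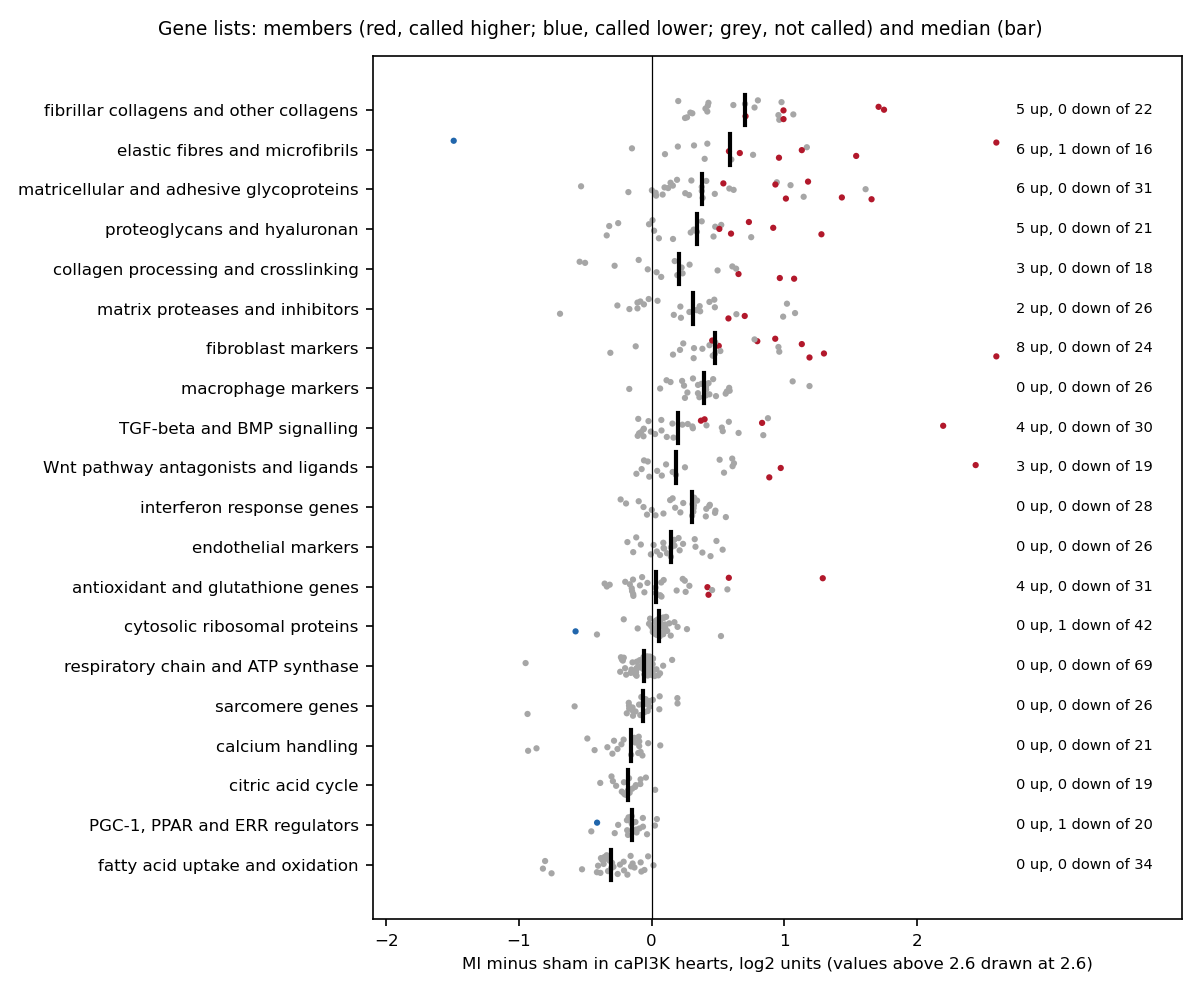
Change after MI of the members of 20 gene lists in caPI3K hearts, in log2 units on the horizontal axis, 1 point a gene and a bar at the list median, with the counts called up and down at the right. The collagen list lies wholly to the right of 0 (median 0.71), and the list of fatty acid uptake and oxidation lies to the left of it for 33 of 34 genes (median -0.31) with 0 genes called.

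*Sfrp2*, *Frzb* and *Sfrp1* rose, 3 of 19 genes of a list of Wnt antagonists, ligands and receptors whose median change was 0.18. *Sfrp2*, a secreted Frizzled-related protein that modulates Wnt signals, had 904, 819.7, 779.6 and 1084 on MI arrays, against 126, 223, 215 and 91.7 on sham arrays. The sham array without Y-linked signal was the lowest of all, and the change was 2.44 (SE 0.36, adjusted p = 0.000575) against all sham arrays and 3.13 (adjusted p = 0.0216) against that one. *Frzb*, a relative of *Sfrp2*, had 3019, 2525, 3119.6 and 3020.0 on MI arrays, against 1400.3, 1482, 1559 and 1469 on sham arrays, a change of 0.97 (SE 0.15, adjusted p = 0.000611). *Sfrp1* rose by 0.89 (SE 0.18, adjusted p = 0.0116), and 0 genes of the list fell. The antagonists *Dkk3* (0.62, SE 0.23, adjusted p = 0.233) and *Sfrp4* (0.55, SE 0.30, adjusted p = 0.5) did not pass. Of 30 genes of TGF-beta and BMP signalling 4 rose and 0 fell. They were *Nbl1*, a secreted BMP antagonist, *Fstl1* (0.83, SE 0.18, adjusted p = 0.0194), the receptor *Tgfbr1* (0.37, SE 0.08, adjusted p = 0.0228) and *Skil*, a repressor in the same pathway (0.40, SE 0.09, adjusted p = 0.0279). The count of 4 was 0 without MI replicate 1, 1 without MI replicate 3 or sham replicate 2, and 2 without MI replicate 4 or sham replicate 1 or 4. The ligand *Tgfb2* did not pass (0.41, SE 0.19, adjusted p = 0.374).

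In the pathway that the transgene belongs to, the genes that rose were binding proteins of insulin-like growth factors. *Igfbp4* had 6413, 5911, 5906 and 6488 on MI arrays, against 4234, 3287, 4247 and 3847 on sham arrays, a change of 0.67 (SE 0.11, adjusted p = 0.000902). *Igfbp7* had 13897, 14759, 13457 and 13767 on MI arrays, against 8931, 7859.6, 8956 and 7831 on sham arrays, a change of 0.74 (SE 0.12, adjusted p = 0.00133). Both were called whichever array was left out. *Igfbp3* had 949.8, 698, 768 and 357 on MI arrays, against 382, 291, 284 and 238 on sham arrays. Here MI replicate 4 overlapped the sham arrays, and *Igfbp3* changed by 1.12 (SE 0.25, adjusted p = 0.0207) with a call in 3 of the 8 fits that leave out 1 array. These were the 3 genes called of 27 in the list of IGF and insulin signalling, whose median was 0.01. *Igf1* changed by 0.17 (SE 0.16, adjusted p = 0.747), *Foxo1*, a transcription factor held in check by Akt, by 0.08 (SE 0.10, adjusted p = 0.835), and 0 of 23 FoxO factors and targets were called at an adjusted p below 0.05.

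The natriuretic peptides *Nppa* and *Nppb*, the heart's own diuretic hormones, were both higher after infarction. *Nppa*, atrial natriuretic peptide, had 43335, 44825, 35020.0 and 43214 on MI arrays, against 17210.0, 19504, 21819 and 10218 on sham arrays. MI replicate 3 was the lowest of its group and still above every sham array, and the sham array without Y-linked signal was the lowest of all. *Nppa* changed by 1.32 (SE 0.27, adjusted p = 0.0121), by 1.09 (adjusted p = 0.0652) without sham replicate 4, and by 2.02 (adjusted p = 0.0802) against sham replicate 4 alone. *Nppb*, brain natriuretic peptide, had 38071, 34111, 32278 and 37812 on MI arrays, against 26370.0, 22916, 31144 and 19654 on sham arrays. The lowest MI array was just above the highest sham array, so the separation of *Nppb* was narrow. *Nppb* changed by 0.52 (SE 0.11, adjusted p = 0.0178) and by 0.85 (adjusted p = 0.0318) against the sham array without Y-linked signal. Its call was lost without MI replicate 1 (0.49, adjusted p = 0.0793), MI replicate 4 (0.49, adjusted p = 0.0721), sham replicate 2 (0.49, adjusted p = 0.092) or sham replicate 4 (0.42, adjusted p = 0.0959). None of the other genes in this list of 9, the peptide *Nppc* and the receptors and processing enzymes, was called. The protease *Mme* was at -0.64 (SE 0.20, adjusted p = 0.131) and the convertase *Corin* at -0.18 (adjusted p = 0.685). The list's median was -0.07, and 4 of its 9 changes were positive.

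*Edn1*, endothelin 1, a peptide that constricts vessels and drives growth of muscle cells, had 389, 382, 364 and 455 on MI arrays, against 204, 256, 223 and 263 on sham arrays. The groups were apart, and *Edn1* changed by 0.72 (SE 0.15, adjusted p = 0.0134), or 0.57 (adjusted p = 0.677) against the sham array without Y-linked signal. The call was lost without MI replicate 4 (0.66, adjusted p = 0.0702) or sham replicate 1 (0.66, adjusted p = 0.0582). Of 11 genes of the angiotensin, endothelin and adrenergic list *Edn1* was the one called. It lost its call when the fit allowed for low array numbers (under 1000), where this list had 0 calls. *Ptn*, pleiotrophin, had 794, 782, 738 and 755 on MI arrays, against 186, 329, 302 and 195 on sham arrays, and changed by 1.60 (SE 0.32, adjusted p = 0.00965). Its MI arrays were close together and all above the sham arrays, and it was the one gene called of 28 growth factors and cytokines. The call of *Ptn* depended on the fit. Its list had 0 calls when the intensity trend was left out, and 0 when low array numbers (under 1000) were allowed for.

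Promoter sequence is shown for genes that rose together and carry results that are given above against both sets of sham arrays. *Nppb*, *Fmod* and *Sfrp2* are 3 of the 5 genes called both against all sham arrays and against the one without Y-linked signal, and *Nppa* lies beside *Nppb* on chromosome 4. Each line is the 250 bases before the start in the RefSeq promoter table (GRCm38.p6), on the plus strand at chr4:148000472-148000721 for *Nppa*, chr4:147985650-147985899 for *Nppb*, chr1:134037004-134037253 for *Fmod* and chr3:83766071-83766320 for *Sfrp2*. Capitals mark the letters CATTCC, a core bound by TEAD factors, or AGATAA, one bound by GATA factors, read on both strands.
Nppa: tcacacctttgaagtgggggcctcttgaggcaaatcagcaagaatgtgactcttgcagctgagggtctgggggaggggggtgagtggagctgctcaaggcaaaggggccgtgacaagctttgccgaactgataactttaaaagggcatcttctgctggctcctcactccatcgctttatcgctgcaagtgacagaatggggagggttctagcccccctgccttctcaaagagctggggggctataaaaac
Nppb: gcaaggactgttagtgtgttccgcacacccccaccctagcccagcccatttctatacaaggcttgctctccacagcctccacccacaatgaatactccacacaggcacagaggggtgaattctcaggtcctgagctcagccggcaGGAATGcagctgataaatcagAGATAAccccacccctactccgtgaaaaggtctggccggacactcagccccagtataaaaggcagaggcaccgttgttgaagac
Fmod: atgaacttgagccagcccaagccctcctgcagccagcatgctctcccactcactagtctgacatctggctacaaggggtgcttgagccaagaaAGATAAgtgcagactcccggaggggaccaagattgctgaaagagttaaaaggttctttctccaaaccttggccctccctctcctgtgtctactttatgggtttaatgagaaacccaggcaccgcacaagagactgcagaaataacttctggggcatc
Sfrp2: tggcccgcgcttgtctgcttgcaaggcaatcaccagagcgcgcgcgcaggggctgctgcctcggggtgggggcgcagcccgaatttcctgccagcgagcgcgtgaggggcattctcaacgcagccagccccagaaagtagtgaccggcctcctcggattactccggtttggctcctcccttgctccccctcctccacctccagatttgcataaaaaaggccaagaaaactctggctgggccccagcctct
These windows of *Nppb* and *Fmod* hold AGATAA 1 time each, and that of *Nppb* also holds CATTCC 1 time, on the opposite strand. Of 27025 promoter windows of this length, 12.6% hold CATTCC and 10.2% hold AGATAA, so a match describes the letters and nothing more.

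The lists of sarcomere, calcium handling and ion channel genes had 0 calls. *Acta1*, skeletal alpha-actin and a member of the fetal programme, had 34372, 36299, 32536 and 41420.0 on MI arrays, against 39461, 33925, 37323 and 28604 on sham arrays. The groups overlapped, and *Acta1* changed by 0.06 (SE 0.17, adjusted p = 0.946). *Myh7*, the beta myosin heavy chain, overlapped too, with 22576, 28721, 18152 and 23976 on MI arrays, against 18591, 19390.0, 24976 and 18212 on sham arrays (0.20, SE 0.34, adjusted p = 0.894). Of 26 sarcomere genes, 21 calcium handling genes and 24 ion channel genes none was called, with medians of -0.07, -0.15 and -0.14. With 1.08% of all tested autosomal genes called, 0 calls in lists of this size does not set them apart. The change was negative for 21 of the 26 sarcomere genes, 20 of the 21 calcium handling genes and 15 of the 24 ion channel genes. *Ryr2*, the calcium release channel, had 6009.6, 8128, 6602 and 5892 on MI arrays, against 8919, 10697, 8183 and 9339 on sham arrays. Its MI arrays were all lower, but the change of -0.48 did not pass (SE 0.16, adjusted p = 0.144). The pump *Atp2a2* (-0.07, SE 0.08) and its brake *Pln* (-0.03, SE 0.08) had adjusted p-values of 0.82 and 0.95, and *Actc1*, cardiac alpha-actin, was at -0.06 (SE 0.10, adjusted p = 0.883).

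Fewer genes fell, and those described here have different known roles. *Hhatl*, a hedgehog acyltransferase-like protein abundant in muscle, had 1493, 1715, 1703 and 1389.8 on MI arrays, against 2397, 2275, 2417 and 2449.7 on sham arrays. The sham arrays lay close together and above every MI array, and *Hhatl* changed by -0.60 (SE 0.11, adjusted p = 0.00635), or -0.64 against the sham array without Y-linked signal. *Mtfp1*, which promotes mitochondrial fission, had 3601, 4244, 4204 and 3906 on MI arrays, against 5257, 5621, 5089 and 5481 on sham arrays, a change of -0.43 (SE 0.07, adjusted p = 0.00225). *Hhatl* and *Mtfp1* were called whichever array was left out. *Pex11a*, which multiplies peroxisomes, had 621, 664, 830.3 and 667 on MI arrays, against 1067, 1017, 909.8 and 1118 on sham arrays, a change of -0.56 (SE 0.12, adjusted p = 0.0132). *Fitm2*, which forms lipid droplets, had 1906, 2296, 2113 and 2294 on MI arrays, against 2919, 3074, 2884 and 3352 on sham arrays, a change of -0.51 (SE 0.11, adjusted p = 0.0132). Neither of these genes' groups overlapped. *Rpl3l*, the striated muscle form of a ribosomal protein, fell by 0.57 (SE 0.14, adjusted p = 0.0396) and was the one gene called of 42 cytosolic ribosomal proteins, whose median was 0.06. *Gata6*, a cardiac transcription factor, fell by 0.48 (SE 0.11, adjusted p = 0.0235), the one called of 24 such factors. *Pex11a* and *Fitm2* each kept their call in 6 of the 8 fits that leave out 1 array, and *Rpl3l* and *Gata6* in 2.

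Mitochondrial fuel genes lay slightly lower without passing the test one by one. Of 34 genes of fatty acid uptake and oxidation, 33 had a negative change and 0 were called, with a median of -0.31. For 20 of them the MI arrays lay all below the sham arrays, against 4.37% of all tested autosomal genes. *Ech1*, an isomerase of beta oxidation, had 23319, 26270.0, 22781 and 22465 on MI arrays, against 31718, 31405, 30104 and 32774 on sham arrays. These groups were well apart, but the change of -0.41 had an adjusted p of 0.0767 (SE 0.11). *Acot2*, a mitochondrial thioesterase, had 2218, 1994, 2311 and 2196 on MI arrays, against 3210.3, 4115, 3092 and 4484 on sham arrays (-0.75, SE 0.19, adjusted p = 0.0531). *Acadm* (-0.14, SE 0.09) and the fatty acid transporter *Cd36* (-0.18, SE 0.09) had adjusted p-values of 0.572 and 0.45. The median was -0.18 for 19 genes of the citric acid cycle and -0.05 for 69 of the respiratory chain and ATP synthase, again with 0 called. In a fit on the 8 caPI3K arrays alone, 14 of the 34 fatty acid genes were called lower and 0 higher, so the calls depend on which arrays give the spread. Over all 14178 autosomal genes that fit called 138 lower and 249 higher.

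Of the regulators of these genes, *Ppargc1b*, the coactivator PGC-1 beta, had 2067, 2157, 2496 and 2071 on MI arrays, against 2814, 3105, 2721 and 3043 on sham arrays, and fell by 0.41 (SE 0.10, adjusted p = 0.041). The groups did not overlap, but the call held in 2 of the 8 fits that leave out 1 array. Its relative *Ppargc1a* changed by -0.18 (SE 0.19, adjusted p = 0.799), *Ppara* by -0.18 (SE 0.14, adjusted p = 0.673) and the glucose transporter *Slc2a4* by -0.17 (SE 0.10, adjusted p = 0.563). *Pank1*, which starts coenzyme A synthesis, had 1020.1, 1161, 1243 and 989 on MI arrays, against 1576, 1873, 1664 and 1630.3 on sham arrays, with no overlap. *Dio2*, the deiodinase that activates thyroid hormone, had 400.2, 326, 435 and 416 on MI arrays, against 82.1, 120.3, 64.6 and 87.3 on sham arrays. All of its MI arrays were above all sham arrays, and it was the one gene called of 7 in the thyroid hormone list.

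Genes of redox balance rose in part. Of 31 antioxidant and glutathione genes 4 rose and 0 fell, and the median was 0.03. *Gpx8*, a peroxidase of the endoplasmic reticulum, had 2239, 1753, 2007 and 1814 on MI arrays, against 1258, 1159, 1381 and 1394 on sham arrays (0.58, SE 0.12, adjusted p = 0.0144). *Gpx3*, the secreted form, rose by 0.43 (adjusted p = 0.0337), *Gpx1* by 0.42 (adjusted p = 0.0449), and *Nox4*, an oxidase that makes hydrogen peroxide, by 1.29 (SE 0.33, adjusted p = 0.047). The count of 4 was 0 without MI replicate 1 or sham replicate 2, 1 without MI replicate 3 or 4 or sham replicate 4, and 2 without sham replicate 1 or 3. *Nox4* and *Gpx1* lost their call in 7 of the 8 fits. Of 27 heat shock and unfolded protein response genes, *Xbp1* rose (0.29, SE 0.07, adjusted p = 0.0454) and was not called in any of those 8 fits.

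**Figure D3:**
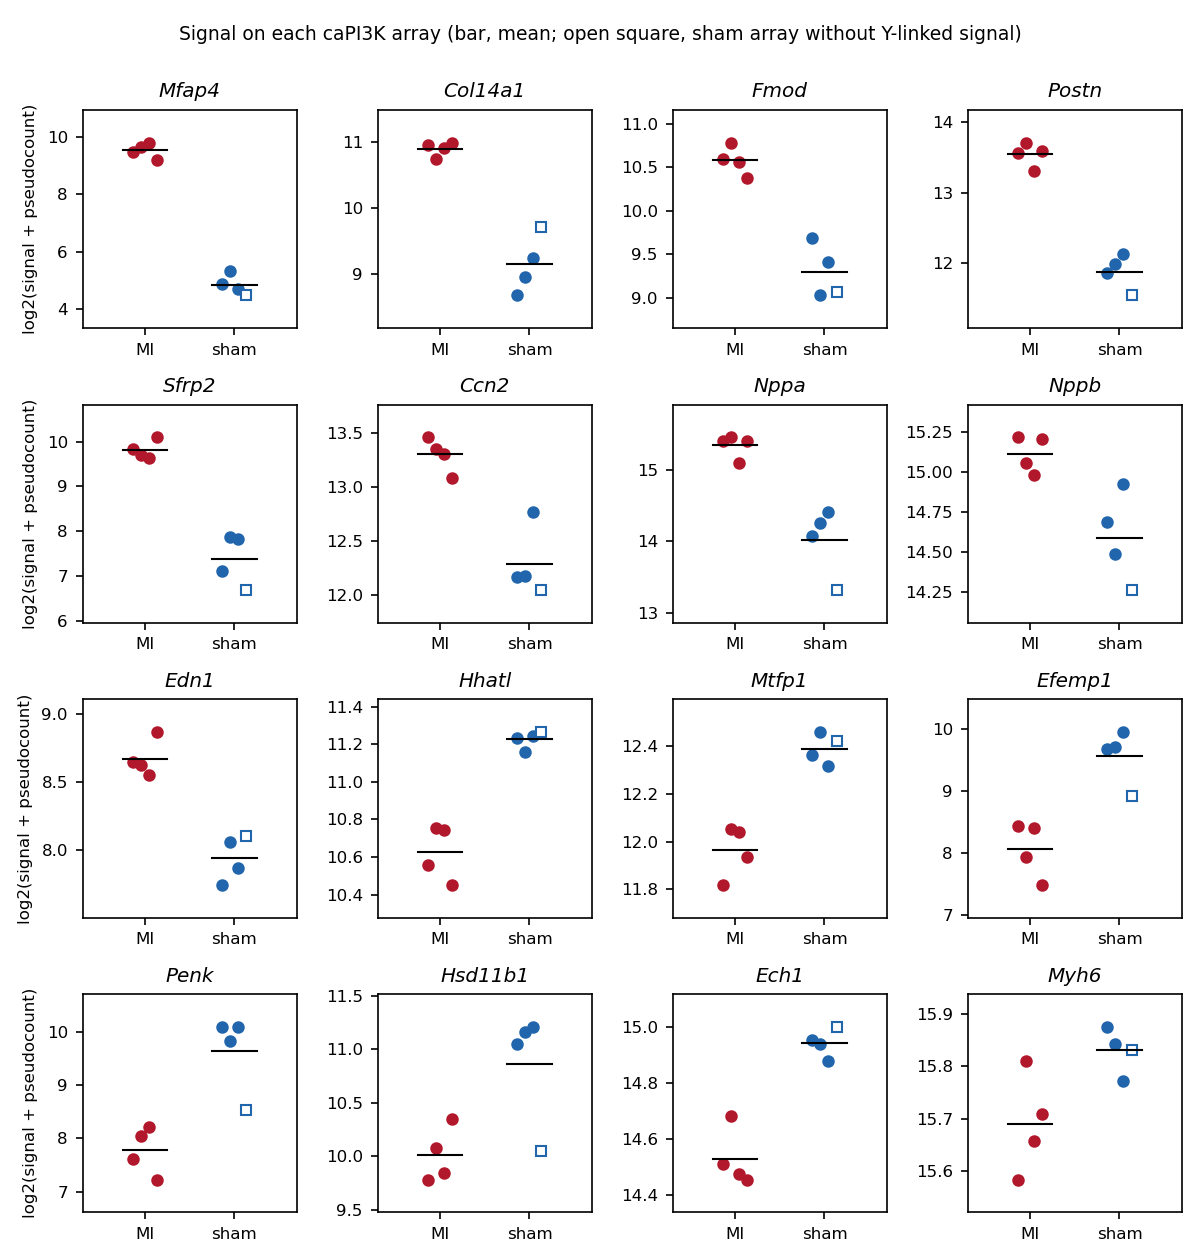
Signal of 16 genes on each caPI3K array as log2(signal + pseudocount), MI arrays in red at the left and sham arrays in blue at the right of each panel, with a bar at the group mean and an open square for the sham array without Y-linked signal. MI arrays lie above sham arrays for the matrix, Wnt antagonist and peptide genes and below them for *Hhatl*, *Mtfp1*, *Efemp1*, *Penk* and *Ech1*, while *Hsd11b1* and *Myh6* overlap.

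A pair of neuroendocrine precursors moved in opposite directions. *Scg2*, secretogranin 2 of secretory granules, had 177, 106, 181 and 167 on MI arrays, against 7.81, 27.3, 6.01 and 9.83 on sham arrays, of which 3 are below the pseudocount. *Penk*, the enkephalin precursor, had 185, 254, 286 and 139 on MI arrays, against 1075, 899, 1073 and 359 on sham arrays. The sham array without Y-linked signal was the lowest sham array for *Penk*, so the change of -1.85 (SE 0.32, adjusted p = 0.00224) became -0.75 (adjusted p = 0.832) against it alone. *Hsd11b1*, which regenerates active glucocorticoid, had 868, 1067, 907 and 1294 on MI arrays, against 2113, 2281, 2357 and 1045 on sham arrays. Sham replicate 4 fell among the MI arrays, and the change of *Hsd11b1* was -0.86 (SE 0.20, adjusted p = 0.0329) against all sham arrays and -0.03 (adjusted p = 0.994) against sham replicate 4. Among the 153 genes called, *Penk*, *Efemp1* and *Hsd11b1* are thus lower on the sham array without Y-linked signal than on the other sham arrays, and Y-linked signal and operation cannot be told apart in these values.

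**Figure D4:**
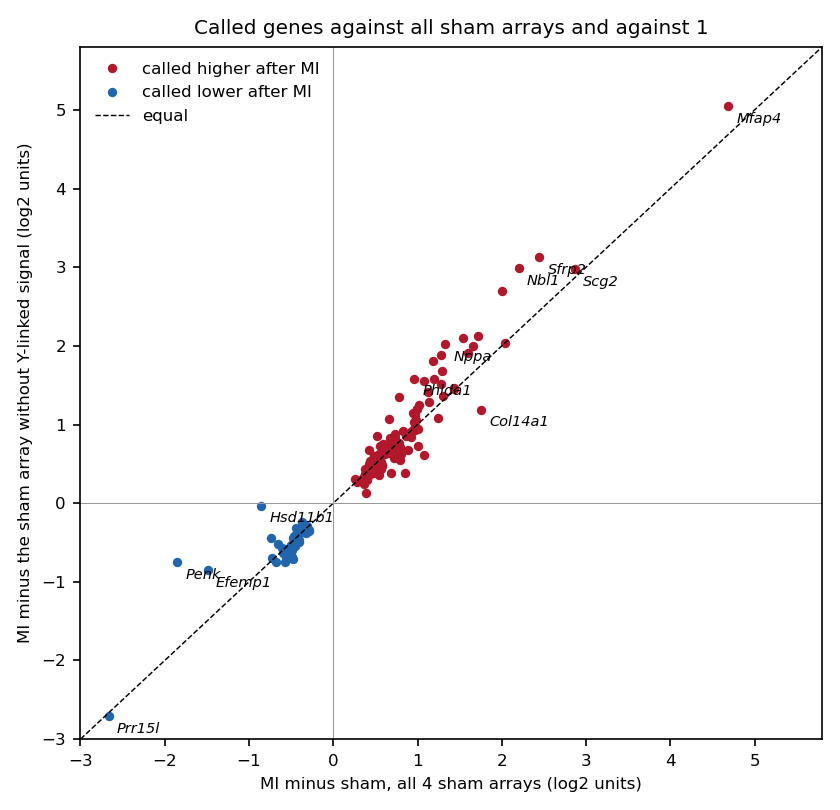
Change of the 153 called genes against all 4 sham arrays (horizontal axis) and against the sham array without Y-linked signal alone (vertical axis), in log2 units, with genes called higher in red, genes called lower in blue and a dashed line of equality. *Sfrp2* and *Nppa* lie above the line, *Penk* and *Efemp1* lie nearer 0 on the vertical axis, and *Hsd11b1* lies at -0.03 there.

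*Phlda1*, a pleckstrin homology-like protein, had 2085, 2183, 2918 and 1626 on MI arrays, against 1359, 1012, 1513 and 712 on sham arrays, the array without Y-linked signal being lowest. It changed by 0.96 (SE 0.20, adjusted p = 0.0114) and by 1.58 (adjusted p = 0.0135) against that array. *Slc5a3*, the carrier of myo-inositol, had 741, 701, 721 and 659 on MI arrays, against 345, 286, 399.6 and 361 on sham arrays, a change of 1.01 (SE 0.14, adjusted p = 0.000202). *Anxa3*, an annexin, had 2833, 2412, 2479 and 2654 on MI arrays, against 1675, 1609, 1958 and 1666 on sham arrays, a change of 0.59 (SE 0.09, adjusted p = 0.000611). *Slc5a3* and *Anxa3* had no overlap and were called whichever array was left out. *Phlda1* and *Hsd11b1*, and the genes *Mmrn1* and *S100a10* given below, were named after their values were seen.

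Macrophage markers lay higher without a call. Of 26 macrophage markers 25 had a positive change and 0 were called, with a median of 0.39. For 11 of them the MI arrays lay all above the sham arrays, against 4.99% of all tested autosomal genes. The list's level was 0.312, 0.029, 0.049 and 0.444 on MI replicates 1 to 4, and -0.22, -0.375, 0.017 and -0.14 on sham replicates 1 to 4. MI replicates 2 and 3 were thus close to sham replicate 3, and MI replicates 1 and 4 were the highest. *C1qc*, a complement subunit made by macrophages, had 2038, 1710.1, 1873 and 2415 on MI arrays, against 1355, 1128, 1509.8 and 1320.0 on sham arrays (0.59, SE 0.17, adjusted p = 0.0855). *Csf1r*, the receptor for macrophage colony-stimulating factor, changed by 0.35 (SE 0.12, adjusted p = 0.194). For 28 interferon response genes the median was 0.31 against all sham arrays and -0.25 against the one without Y-linked signal, so its direction depends on the sham arrays taken. For 10 genes of MHC class II antigen presentation, MI replicate 4 was at 1.025 and the other MI arrays at -0.157 to -0.043, with 0 called.

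Markers of other cells that a heart sample can hold were counted in the same way. Of 26 endothelial, 18 smooth muscle and pericyte, 9 adipocyte, 4 red cell and 17 lymphocyte, mast cell and neutrophil markers, 0 were called at an adjusted p below 0.05 in limma. Of 12 nerve and Schwann cell markers *Pmp22*, a myelin protein, rose. It had 5367, 4946, 4514 and 4273 on MI arrays, against 3352, 2680.4, 3559 and 2851 on sham arrays. The groups did not overlap, and its change of 0.62 (SE 0.11, adjusted p = 0.00259) was called whichever array was left out. The median of that list was -0.20. Of 15 epicardial and mesothelial markers *Krt18* (1.25, SE 0.29, adjusted p = 0.0311) and *Sulf1* (0.61, SE 0.14, adjusted p = 0.0311) rose and *Efemp1* fell. *Krt18* was called in 0 of the 8 fits that leave out 1 array and *Sulf1* in 2. Of 16 atrial markers *Nppa* was the one called, 7 changes were positive, and the median was -0.15. *Sln* had 1567, 838, 1264 and 421 on MI arrays, against 1249.8, 1430.1, 3264 and 1629 on sham arrays (-0.93, SE 0.52, adjusted p = 0.508), and *Myl7* changed by -0.94 (SE 0.41, adjusted p = 0.341). Of 11 skeletal muscle markers *Mybpc2* fell (-0.50, SE 0.12, adjusted p = 0.0414) and was not called in any of the 8 fits that leave out 1 array.

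The same operation in the other genotypes gave values to set beside these. In Ntg hearts the same fit called 110 autosomal genes (0.776%), of which 97 were higher after MI (0.684%) and 13 lower (0.0917%). In dnPI3K hearts it called 1340 (9.45%), of which 599 were higher (4.22%) and 741 lower (5.23%). Of the 117 genes that rose in caPI3K hearts, 50 were also called up in Ntg hearts and 83 in dnPI3K hearts, which is 50 of 97 and 83 of 599 of the genes called up there. Of the 36 that fell, 0 were called down in Ntg hearts, out of 13, and 17 in dnPI3K hearts, out of 741. The change had the same sign in Ntg hearts for 145 of the 153 genes and in dnPI3K hearts for 147. These genes were picked for their caPI3K change, and the share of same-sign changes over all tested genes was not counted. The counts therefore do not measure how far the responses were shared. *Fmod* changed by 1.28 in caPI3K hearts, 1.28 in Ntg hearts and 1.35 in dnPI3K hearts, and *Postn* by 1.66, 1.77 and 1.80 in the same order.

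Some genes called in caPI3K hearts had smaller changes in both other genotypes. They were picked from genes with a large caPI3K change, so smaller values elsewhere follow in part from that choice. No Ntg or dnPI3K array had Y-linked signal, whereas all but 1 of the caPI3K sham arrays had it. Array numbers differed as well. The caPI3K sham arrays are numbered 1410 to 1417, and every other array of the series is numbered 1191 or lower. Allowing for array numbers under 1000 does not set the caPI3K sham arrays apart. Every comparison of the caPI3K change with the other genotypes carries these differences between sham groups, and their part was not tested. *Edn1* changed by 0.72 in caPI3K hearts, -0.20 in Ntg hearts and 0.13 in dnPI3K hearts. *Mmrn1*, multimerin 1 of endothelium and platelets, had 773, 563, 668 and 773 on caPI3K MI arrays, against 328, 359, 366 and 324 on caPI3K sham arrays. It changed by 0.98 in caPI3K hearts (SE 0.18, adjusted p = 0.00436), 0.17 in Ntg hearts and 0.06 in dnPI3K hearts. *S100a10*, the partner of annexin A2, changed by 0.71 (SE 0.13, adjusted p = 0.00366), 0.35 and 0.08, and *Igfbp3* by 1.12, 0.09 and 0.14, in the same order. *Prr15l* had 24.9, 5.35, 3.86 and 4.82 on caPI3K MI arrays, against 105, 124, 106 and 117 on caPI3K sham arrays, so that 3 MI arrays were below the pseudocount. *Prr15l* changed by -2.67 (SE 0.44, adjusted p = 0.0016) in caPI3K hearts, -0.08 in Ntg hearts and 0.18 in dnPI3K hearts.

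The test of the difference itself called none of these. For the change in caPI3K hearts minus that in Ntg hearts limma called 0 autosomal genes, the lowest adjusted p being 0.470, with 781 genes at an unadjusted p below 0.05. Its 5 genes of smallest p were *Aen* (-0.63, SE 0.13), *Pms2* (-2.12, SE 0.48), *4930448K20Rik*, *Cdc37l1* (-0.41, SE 0.09) and *Myl7* (-2.49, SE 0.58). The difference for *Edn1* was 0.92 (SE 0.22, adjusted p = 0.47). For the change in caPI3K hearts minus that in dnPI3K hearts limma called 0 as well, the lowest adjusted p being 0.074, with 1437 genes at an unadjusted p below 0.05. A fit to the 16 arrays of these groups alone called 62 genes, 48 positive and 14 negative, and 4 were called in the fit to all groups without dnPI3K MI replicate 1, against 1 without dnPI3K MI replicate 4, dnPI3K sham replicate 2 or caPI3K sham replicate 4. Its 5 genes of smallest p were *Naa38* (0.55, SE 0.10), *Ggct* (0.78, SE 0.15), *Kif5c* (-2.20, SE 0.44), *Gnmt* (3.43, SE 0.69) and *Nsmce1* (0.87). The difference from dnPI3K hearts was 1.39 for *Nppa* (SE 0.39, adjusted p = 0.181), -0.90 for *Acta1* (SE 0.24, adjusted p = 0.178), 0.64 for *S100a10* (SE 0.18, adjusted p = 0.184) and -2.84 for *Prr15l* (SE 0.62, adjusted p = 0.0901). These tests rest on 16 arrays in place of 8 and, on simulated data, recovered 39.8% (from Ntg) and 42.6% (from dnPI3K) of genes made to differ by 1 log2 unit, so a miss does not show that responses were alike.

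Energy genes can be set side by side in the 3 genotypes. For the 69 genes of the respiratory chain and ATP synthase the median change was -0.05 in caPI3K hearts with 0 called, -0.22 in Ntg hearts with 0 called, and -0.33 in dnPI3K hearts with 55 called lower. For the difference from dnPI3K hearts 68 of the 69 were positive, with a median of 0.26 and a lowest adjusted p of 0.102. Over all tested autosomal genes 6972 of 14178 of these differences were positive. The pattern was not particular to energy genes. Of 42 cytosolic ribosomal proteins 38 had a positive difference from dnPI3K hearts, with a median of 0.31. Their median changes were 0.06 in caPI3K, -0.16 in Ntg and -0.25 in dnPI3K hearts. For the 34 genes of fatty acid uptake and oxidation the medians were -0.31, -0.30 and -0.43 in the same order, with 0, 2 and 19 called lower. *Ech1* changed by -0.41 in caPI3K hearts, -0.49 in Ntg hearts and -0.80 in dnPI3K hearts, and its difference from dnPI3K hearts was 0.39 (SE 0.16, adjusted p = 0.402). For the 22 collagens the medians were 0.71, 0.77 and 0.92, with 5, 8 and 16 called higher.

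**Figure D5:**
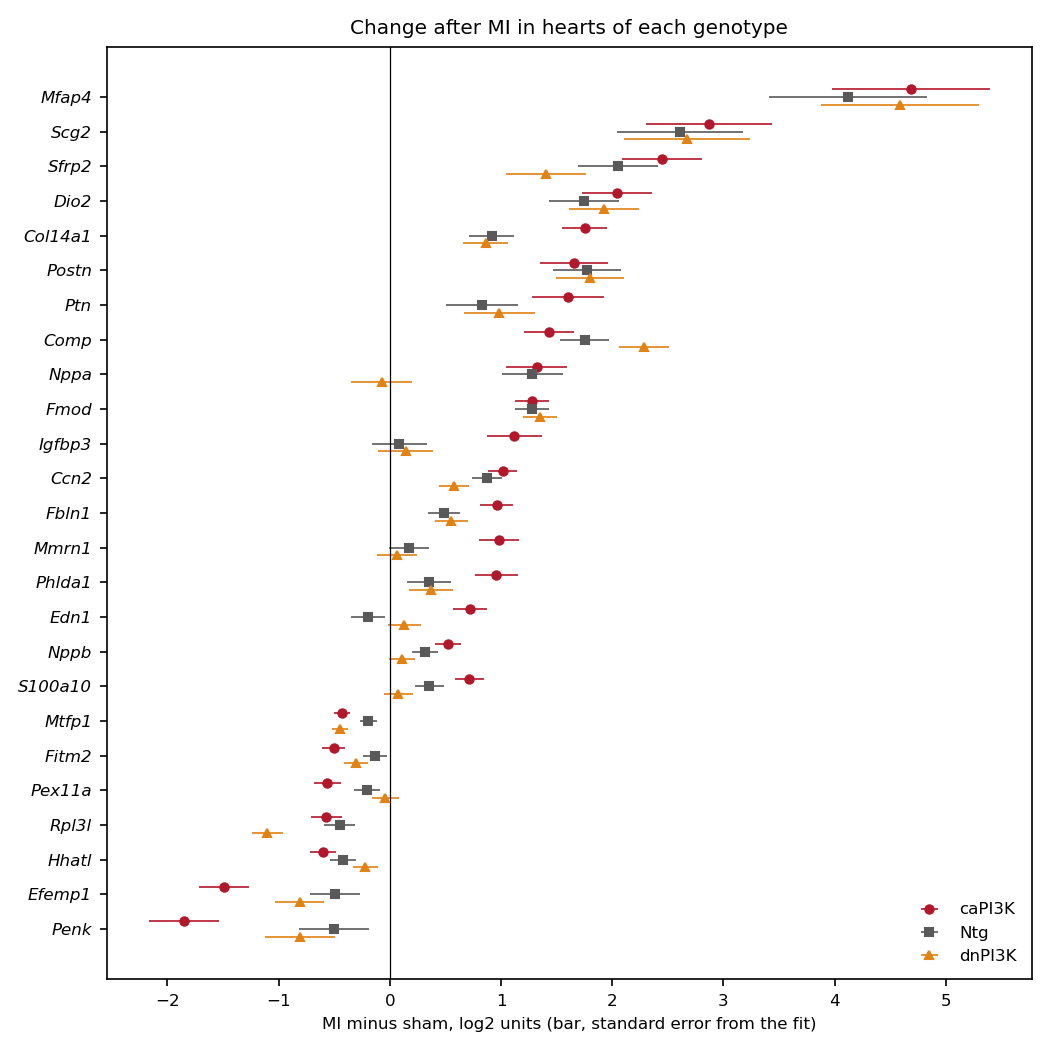
Change after MI, MI minus sham in log2 units, of 25 genes called in caPI3K hearts, with caPI3K hearts in red, Ntg hearts in grey and dnPI3K hearts in orange, and bars for the standard error from the fit. *Fmod* and *Postn* lie together in the 3 genotypes, whereas *Edn1*, *Igfbp3* and *Mmrn1* lie apart in caPI3K hearts and *Nppa* is near 0 in dnPI3K hearts, with 0 differences called in the fit to all 24 arrays. Only caPI3K sham arrays include arrays with Y-linked signal, and the caPI3K sham arrays have the highest array numbers of the series.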

How the data were processed

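Heart RNA of FVB/N mice was measured on 24 Affymetrix arrays, 4 a group. The deposited values are MAS5 signal intensities, per the submitters' processing notes, 1 value a probe set, and no source used here gives the software version or scaling target. The trimmed mean of the deposited intensity is 500.003 to 500.004 on every array. Groups were taken from sample titles.

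Probe sets with 1 gene in the platform annotation were kept if above the 40th percentile on at least 4 arrays, the brightest probe set stood for its gene, and log2(signal + 11.2) was fitted with limma 3.58.1 (R 4.3.3) as 6 group means with an intensity trend and 18 residual degrees of freedom. Benjamini-Hochberg adjustment ran over all 14763 tested genes, and genes below an adjusted p of 0.05 were called. Differences between MI effects were contrasts of that fit. On simulated data the fit recovered 33.0%, 58.3% and 81.3% of changes of 0.5, 1 and 2 log2 units between caPI3K MI and sham.

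The genes and lists were chosen with earlier results of these data known. Genes were named as a fixed set, the largest called changes without overlap of arrays, the members of smallest p in each list, those called whichever array was left out, and the smallest p of each difference. Genes on X and Y, probe sets of several or no genes and the sex of animals were not analysed here beyond the check of Y-linked signal. Alternatives covered the pseudocount, filter, normalization, probe set rule, trend, arrays fitted, array number and each array left out.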

Additional observations from a re-analysis of the deposited data

Results flagged for a closer look

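A gap test was run on 126 groups of 4 arrays, and chance alone flags about 1 in 20 groups. It marked 9 cases in which 1 array stood apart from the other 3, with values as log2(signal + 11.2). Among caPI3K MI arrays, *Frzb* was lowest on replicate 2 (11.31), *Nppa* lowest on replicate 3 (15.1), *Ppargc1a* highest on replicate 2 (10.87), *Prr15l* highest on replicate 1 (5.176) and *Scg2* lowest on replicate 2 (6.868). Among caPI3K sham arrays, *Ltbp2* was lowest on replicate 4 (7.423), *Penk* lowest on replicate 4 (8.533), *Pik3ca* highest on replicate 1 (10.7) and *Pln* highest on replicate 1 (15.75). Sham replicate 4 is the sham array without Y-linked signal. Of 5934 tested probe sets that could not be given to 1 gene, which no comparison above uses, 6 were called between caPI3K MI and sham arrays, 4 of them higher in MI.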

How the results depend on the processing

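The count of 153 genes called between caPI3K MI and sham arrays stayed within 1.5 times under either other pseudocount (148 and 155), quantile normalization (173), no filter (135), a stricter filter (193) and autosomal genes alone (151). It was 101 with the mean of a gene's probe sets, 61 without an intensity trend, 387 when only the 2 groups were fitted, 92 with a term for array numbers under 1000, 9 without the sham arrays with Y-linked signal, and 1 without the MI arrays numbered under 1000, which was chosen after the data were seen. It ranged between 62 and 157 when 1 array was left out. The cause of these shifts was not tested, beyond fewer arrays where arrays were left out. The difference from the Ntg effect had 0 calls, and 1 without the sham arrays with Y-linked signal (*Myof*). The difference from the dnPI3K effect had 0 calls, 62 when only the groups compared were fitted (48 positive, 14 negative), and between 0 and 4 when 1 array was left out. No value of a named gene that was called turned its sign. No paired analysis was possible because the labels give no replicate numbers that groups share. Changes of 0.5 log2 units or less are mostly missed at 4 arrays a group, and larger ones are often missed too. On simulated data 58.3% of changes of 1 log2 unit between caPI3K MI and sham were recovered, and fewer for the differences between genotypes. Dim genes near the pseudocount have no dependable fold.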
